A study of Mus musculus with 2 samples.

Results

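The genes of the granin family and of prohormone processing were followed through the cell types of the embryonic mouse pancreas. The 10 genes were matched by symbol, and all 10 were present among the 27998 genes of the deposited matrices. They comprised the granins Chga, Chgb, Scg2 and Scg3, the convertase chaperone Scg5, the prohormone convertases Pcsk1 and Pcsk2, the carboxypeptidase Cpe, the convertase inhibitor precursor Pcsk1n, and Scgn. By its known biochemistry Scgn (secretagogin) is a calcium sensor of hormone-secreting cells and neither a granin nor a processing enzyme, so the label of the group does not cover it.

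The samples were pancreata of C57BL/6 embryos at embryonic day 13.5, 1 titled control and 1 titled knockout, in a series that names the second one Dpy30∆P. Dpy30 is a core subunit of the Trithorax-group complexes that methylate histone H3. Neither the deleter strain nor the deleted exons nor the control's alleles are stated in the labels (not given in the sources used here). Live cells, negative for the dead-cell stain 7-AAD, were sorted from each embryo and sequenced from the 3′ end of the transcript, so that each molecule is counted once by a unique molecular identifier (UMI).

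With a single embryo and library in each group, differences could not be checked against replicates, and conditions were not tested against each other. Intervals are 95% exact Poisson intervals for levels and exact binomial intervals for shares. They cover counting error only, and UMIs of the same cell are not independent. The control library held 3900 barcodes and 32702089 UMIs and the knockout-labelled library 3044 barcodes and 28033433 UMIs, of which 3749 and 2938 cells were analysed. Median depth was 6825.5 and 8049 UMIs per barcode, and 22 barcodes occurred in both libraries. Dpy30 was not lower in the knockout-labelled epithelium (223 and 264 counts per 1000000 UMIs, CPM), but a 3′ tag need not lie in the deleted part. The embryos were of opposite sex (Xist 2 and 56343 UMIs, Ddx3y 1749 and 0), and the summed level of 4 haemoglobin genes differed in every gate, with the knockout-labelled library the higher (161 and 373 CPM in Chga cells).

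Peptide hormones are made as inactive precursors that are packed with granins into dense-core secretory granules. Inside the granules the convertases Pcsk1 and Pcsk2 cut the precursors after pairs of basic residues, and Cpe trims the exposed basic residues away. In the developing pancreas this machinery belongs to the endocrine lineage, whose progenitors transiently express the transcription factor Neurog3, and it also operates in neurons.

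Cells were assigned by UMI counts of a few genes. Neural cells carried at least 3 UMIs summed over Sox10 and other neural marker genes, Neurog3 cells at least 5 UMIs of Neurog3, and Chga cells at least 3 UMIs of Chga with at least 1 of Epcam or Cdh1. Other epithelial cells carried at least 2 UMIs of Epcam and Cdh1, and mesenchymal cells at least 3 of Col3a1 and Col1a2. The control library held 142 Neurog3, 65 Chga, 532 other epithelial, 33 neural and 2630 mesenchymal cells. The knockout-labelled library held 61, 18, 385, 45 and 2109 cells in the same order. Chga cells were 8.80% (6.85 to 11.1) of the control epithelium and 3.88% (2.32 to 6.06) of the knockout-labelled epithelium, a ratio of 0.441, and the binomial intervals did not overlap. Since live cells were sorted, these are shares of the sequenced cells and not numbers of cells in the organ.

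The markers of the named cell types were then read in the gates. In Chga cells 5 of 5 epithelial markers were detected in both libraries (summed 1527 and 1586 CPM). Of 10 neural markers 6 and 3 were detected (summed 161 and 230 CPM), with Tubb3 highest at 81.5 and 129 CPM and Sox10 at 0 UMIs. Isl1 (959 and 919 CPM) and Pax6 (718 and 589 CPM), transcription factors of islet cells, were found in both libraries. The hormone genes differed more: Gcg, which encodes proglucagon, was at 7785 CPM in control Chga cells and 1909 in knockout-labelled ones. Iapp was at 1660 and 21.5 CPM and Ins2 at 498 and 43.1 CPM, so the Chga cells of the 2 libraries differed in hormone UMIs as well as in number. The part of this difference in the values below was not tested beyond a split by Gcg.

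Before the levels, the promoters of the genes were read for letters that could be shared, because most of these genes were high in the same cells. RefSeq start sites on GRCm38.p6, with 250 bases before and 50 after the start, were at hand for 9 of the 10 genes, all but Cpe. The cyclic AMP response element, whose full palindrome is TGACGTCA, stood in 3 of the 9 windows and in 1.79% of all 32851 mouse promoter windows of this length. Its variant TGACGTAA stood in the Chga window and in 0.499% of all windows. The 4 stretches below show these letters, in capitals, 5′ to 3′ on the strand of the gene, 68, 72, 44 and 78 bases before the RefSeq start of Scg2, Chgb, Chga and Pcsk1 respectively.

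Scg2, chr1:79440076-79440105, minus strand: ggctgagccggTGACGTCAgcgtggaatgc

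Chgb, chr2:132781559-132781588, plus strand: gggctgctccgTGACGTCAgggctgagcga

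Chga, chr12:102554886-102554915, plus strand: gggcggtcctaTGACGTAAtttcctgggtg

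Pcsk1, chr13:75089768-75089797, plus strand: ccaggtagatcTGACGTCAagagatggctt

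The stretches of Scg2 and Chgb fall in an exon annotated by GENCODE M21, and those of Chga and Pcsk1 do not. In all, 14 motifs were searched on both strands, and the counts below are descriptions of letters, not of binding. The core TGACG, contained in both elements above, stood in 7 of 9 windows and in 20.8% of all windows, and TGACGC, which also contains it, in 3 of 9 and 7.40%. The E-box CANNTG stood in 6 of 9 and 72.3%, and its forms CAGATG and CAGCTG in 0 and 3 of 9, against 17.2% and 16.3%. TATAAA stood in 1 of 9 and 13.6%, and the GC-box core CCGCCC in 7 of 9 and 35.7%. Of pieces of the neuron-restrictive silencer element, TTCAGCACC stood in 1 of 9 and 0.371%, and GGACAGC in 1 of 9 and 6.56%. Both matches among the 9 lay in the Scg2 window. GCGGACAG, which overlaps GGACAGC, stood in 0 of 9 and 0.880%. CCATGG stood in 1 of 9 and 9.56%, and GTTGCC in 2 of 9 and 12.5%.

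Within the epithelium all 10 genes were concentrated in Chga cells. In both libraries each of them was at least 4-fold above the other epithelium there, which held for 2.72% of all 11809 genes measured, and none was 4-fold below, as were 2.05% of all genes. For Chga itself the gate sets the value. Together the 10 genes made up 2.03% of all UMIs of control Chga cells and 1.77% of knockout-labelled ones, and Chgb alone supplied 77.3% and 73.9% of these. In mesenchyme the same 10 genes made up 0.00220% and 0.00204% of UMIs. After thinning every cell to 3000 UMIs, the median Chga cell showed 6 of the 10 genes in either library. At least 3 of the 9 genes other than Chga were present in 60 of 64 Chga cells of the control and 17 of 18 of the knockout-labelled library, in 15 of 141 and 4 of 60 Neurog3 cells, and in 0 of 2603 and 0 of 2085 mesenchymal cells.

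**Figure D1:**
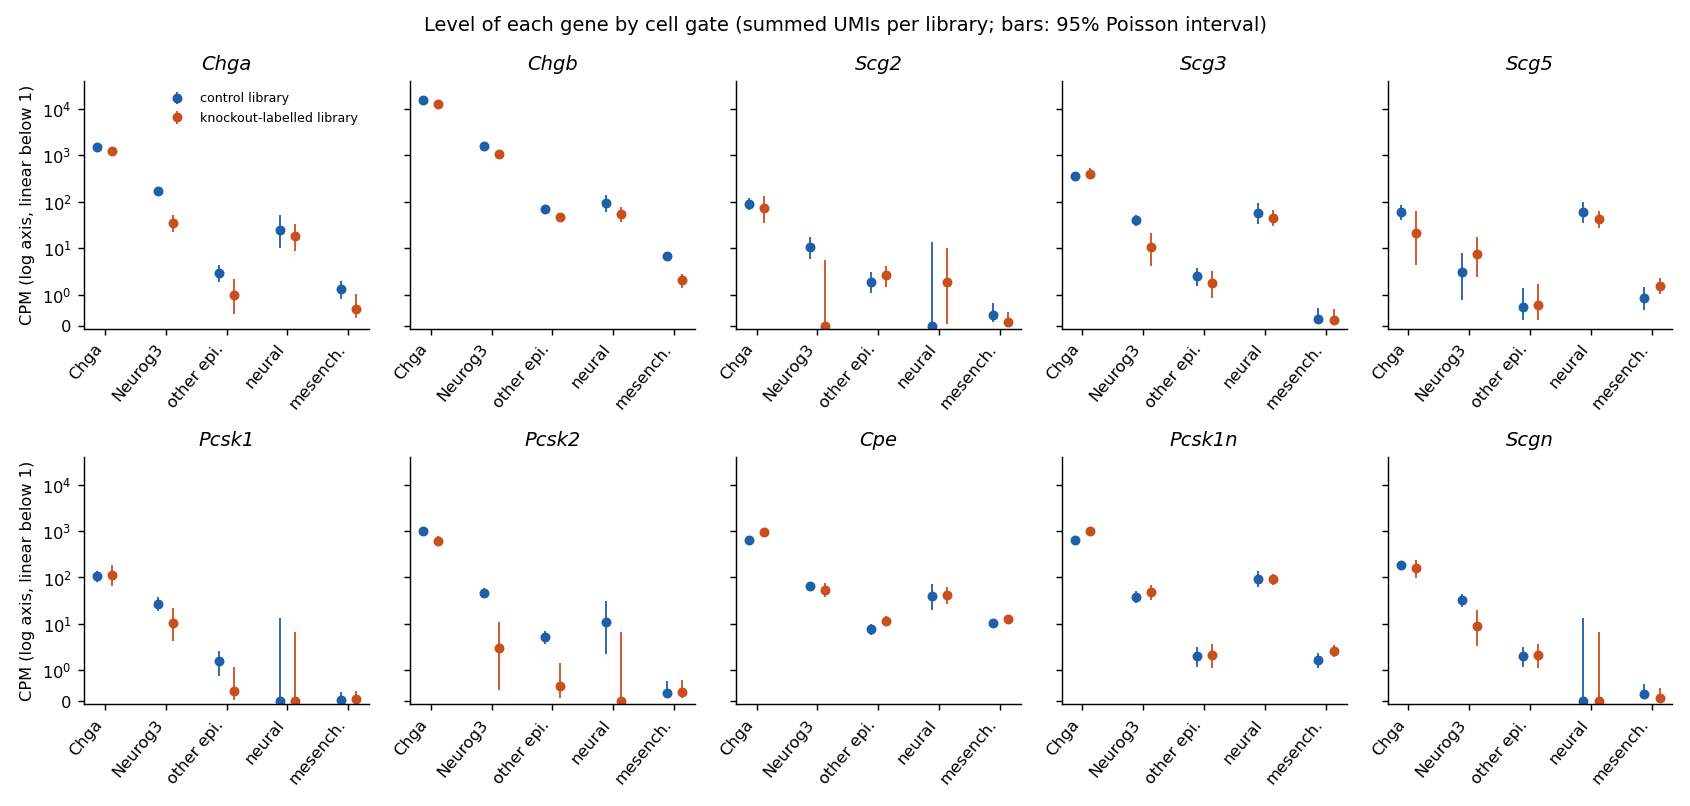
Level of each gene (CPM, logarithmic axis, linear below 1) in 5 cell gates, control in blue and knockout-labelled in orange, from summed UMIs with 95% Poisson intervals. Scg5 was highest in neural cells (61.1 and 42.1 CPM), where its interval overlapped that of Chga cells, and the other 9 genes were highest in Chga cells (Chgb at 15733 and 13099 CPM).

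Chgb, chromogranin B, is a granule cargo protein encoded at chr2:132781278-132795079 on the plus strand. Its level was 15733 CPM (15396 to 16075) in control and 13099 CPM (12505 to 13714) in knockout-labelled Chga cells, a fold of 0.833 (0.791 to 0.876). Every Chga cell of both libraries had a Chgb UMI, but single cells ranged from 1.64 to 741 Chgb UMIs per 10000 (median 150.0) among control cells and from 8.17 to 321 (median 116) among knockout-labelled cells. The range of the knockout-labelled cells lay within that of the control cells, whereas the intervals of the sums did not overlap.

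Chgb was next highest in Neurog3 cells, at 1589 CPM (1522 to 1659) in the control and 1066 CPM (989 to 1147) in the knockout-labelled library. Most Neurog3 cells nevertheless had none: 43 of 142 and 16 of 61 cells had a UMI. Among the named gates neural cells (93.5 and 54.9 CPM) and other epithelium (71.5 and 47.3 CPM) followed, with overlapping intervals between these 2 gates in each library. Mesenchyme was lowest (6.68 and 2.01 CPM). The cells of no gate, described further below, had 531 and 73.9 CPM. In the other epithelium 6 control and 2 knockout-labelled cells with at least 10 Chgb UMIs held 90.2% and 91.4% of its Chgb UMIs, and all of these cells also had a UMI of Isl1 or Pax6.

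Chga, chromogranin A, the classic marker of neuroendocrine granules, lies at chr12:102554969-102565028 on the plus strand. Its level in Chga cells, which it defines, was 1516 CPM in the control and 1270.4 CPM in the knockout-labelled library. In Neurog3 cells it was 174 CPM (153 to 198) in the control library and 34.4 CPM (21.8 to 51.7) in the other, a fold of 0.198 (0.123 to 0.304). UMIs were found in 34 of 142 and 7 of 61 of these cells. Chga stood at 25.2 and 18.3 CPM in neural cells, at 2.86 and 0.976 CPM in other epithelium, and at 1.34 and 0.533 CPM in mesenchyme.

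Scg3, secretogranin III, which tethers granin aggregates to the granule membrane, lies at chr9:75643189-75684056 on the minus strand. It was at 364 CPM (314 to 419) in control and 402 CPM (304 to 522) in knockout-labelled Chga cells, with 62 of 65 and 16 of 18 cells positive. The difference was within counting error. In Neurog3 cells it was at 40.2 CPM (30.1 to 52.5) against 10.5 CPM (4.21 to 21.6), with intervals that did not overlap. Neural cells had 57.5 and 45.7 CPM, so that Scg3 was next highest in neural cells of the knockout-labelled library and did not differ beyond counting error between neural and Neurog3 cells of the control library.

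Scg2, secretogranin II, precursor of the peptide secretoneurin (chr1:79434669-79440120, minus strand), was scarce. Chga cells had 91.0 CPM (67.1 to 121) and 71.8 CPM (34.4 to 132), from 48 and 10 UMIs in 23 of 65 and 6 of 18 cells. The Neurog3 cells of the control library had 14 UMIs, 12 of them in 1 cell, which is 10.6 CPM. The 61 Neurog3 cells of the other library had 0, which allows up to 4.49 CPM. In other epithelium 1 knockout-labelled cell held 12 of the 16 Scg2 UMIs, so that its levels outside Chga cells rest on single cells.

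Scg5, the 7B2 protein, accompanies immature Pcsk2 through the secretory pathway and keeps it inactive until it reaches the granule (chr2:113776362-113829121, minus strand). Control Chga cells had 60.6 CPM (41.5 to 85.6) from 32 UMIs in 24 of 65 cells. Knockout-labelled Chga cells had 3 UMIs in 2 of 18 cells, 21.5 CPM (4.44 to 62.9), so the fold of 0.355 had an interval from 0.0696 to 1.13. In neural cells Scg5 was at 61.1 CPM (35.6 to 97.9) and 42.1 CPM (26.7 to 63.1), and in each library these intervals overlapped those of Chga cells, which was so for none of the granins. Of all Scg5 UMIs of the knockout-labelled library 3.85% lay in Chga cells, 29.5% in neural cells and 33.3% in mesenchyme. In the control library these shares were 37.2%, 19.8% and 18.6%. The shares also depend on the number of cells per gate, 65 and 18 Chga cells and 33 and 45 neural cells.

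Pcsk2 encodes proprotein convertase 2, which releases glucagon from proglucagon in alpha cells (chr2:143546156-143816285, plus strand). It was at 1008 CPM (924 to 1098) in control Chga cells and 624 CPM (500.2 to 770.2) in knockout-labelled ones, a fold of 0.619 (0.488 to 0.778). The share of positive cells differed less: 46 of 65 cells, 70.8% (58.2 to 81.4), and 11 of 18 cells, 61.1% (35.7 to 82.7). Medians per cell were 3.99 and 3.06 UMIs per 10000, with ranges from 0 to 38.5 and from 0 to 26.3, so the cells of the 2 libraries overlapped.

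Pcsk2 was lower in other epithelial gates too. In Neurog3 cells it was 47.0 CPM (36.0 to 60.2), from 62 UMIs in 9 of 142 control cells, against 2 UMIs in 1 of 61 cells, 2.99 CPM (0.363 to 10.8), a fold of 0.0637 (0.00755 to 0.240). Of the 62 control UMIs, 50 lay in the 14 Neurog3 cells with 3 or more Chga UMIs, 24 of them in 1 cell. In the other epithelium it was 5.12 CPM (3.71 to 6.90) against 0.488 CPM (0.101 to 1.43), although 1 control cell held 53.5% of those UMIs. Of all Pcsk2 UMIs, 75.5% and 76.3% lay in Chga cells, the highest such share among the 10 genes in both libraries.

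Pcsk1 encodes proprotein convertase 1/3, which begins the cutting of proinsulin and cuts proglucagon to GLP-1 (chr13:75089826-75134861, plus strand). Chga cells had 106 CPM (80.2 to 138) and 115 CPM (65.6 to 186), with 39 of 65 and 9 of 18 cells positive, a difference within counting error. Neurog3 cells had 27.3 CPM (19.1 to 37.8) and 10.5 CPM (4.21 to 21.6), and the intervals overlapped slightly. Neural cells of both libraries had 0 Pcsk1 UMIs, which allows a share of positive cells of up to 10.6% and 7.87% by the exact interval. Both convertases were seen together in 28 of 65 control and 6 of 18 knockout-labelled Chga cells, Pcsk2 alone in 18 and 5, Pcsk1 alone in 11 and 3, and neither in 8 and 4.

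Cpe encodes carboxypeptidase E (chr8:64592542-64693054, minus strand). Its level was higher in the knockout-labelled library: control Chga cells had 629 CPM (563 to 701) and knockout-labelled ones 976 CPM (819 to 1155), a fold of 1.55 (1.26 to 1.90). Per cell the median was 5.98 Cpe UMIs per 10000 in the control and 9.35 in the knockout-labelled library, in ranges from 0 to 14.0 and from 0 to 45.4. Nearly every Chga cell was positive, 62 of 65 and 17 of 18. In Neurog3 cells the levels of 64.4 and 53.9 CPM had overlapping intervals.

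Of the 10 genes Cpe was also the one most often seen in mesenchyme. In the control library mesenchyme held 25.4% of all its UMIs, against 42.2% in the other, and 6.31% and 8.63% of mesenchymal cells had a UMI. Per 100 Chgb UMIs, Chga cells held 3.999 and 7.45 Cpe UMIs, and mesenchyme 154 and 638. The part of free RNA in the mesenchymal UMIs was not tested. In the other epithelium Cpe was at 7.62 CPM (5.87 to 9.73) and 11.6 CPM (9.02 to 14.6).

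Pcsk1n encodes proSAAS, whose fragments inhibit Pcsk1, and lies on the X chromosome (chrX:7919822-7924410, plus strand). Like Cpe it was higher in knockout-labelled Chga cells, at 990.5 CPM (832 to 1170.2) against 650.0 CPM (583 to 723), a fold of 1.52 (1.24 to 1.86). Medians per cell were 4.98 and 6.98 UMIs per 10000, and 54 of 65 and 16 of 18 cells were positive. Over 187 X-linked genes measured in Chga cells the median log2 ratio was -0.094, and over all 4639 genes -0.059, and Pcsk1n was at 0.60. Neural cells had 93.5 and 91.5 CPM and Neurog3 cells 38.7 and 47.9 CPM.

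Scgn, at chr13:23953456-23991214 on the minus strand, had 190 CPM (154 to 230.5) and 158 CPM (99.0 to 239) in Chga cells, with 47 of 65 and 11 of 18 cells positive. Neurog3 cells had 32.6 CPM (23.6 to 43.9) in the control and 8.98 CPM (3.30 to 19.5) in the knockout-labelled library. It was at 0 UMIs in the 33 and 45 neural cells, as Pcsk1 was.

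The share of mesenchymal cells with a UMI, at median depths of 6214 and 7548 UMIs against 7623 and 7668.5 in Chga cells, was at most 8.63%, for Cpe. Chgb followed Cpe with 4.45% and 1.52% of mesenchymal cells, Pcsk1n had 1.10% and 2.09%, and the other 7 genes lay between 0.0380% and 1.14%.

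Over the whole epithelium, summed over Neurog3, Chga and other epithelial cells, all 10 genes had a lower level in the knockout-labelled library. Differences between the libraries are given from here as log2 of (CPM + 5), knockout-labelled over control, which understates the change of low genes. By this measure 6 of the 10 genes (Chga, Chgb, Scg3, Pcsk1, Pcsk2 and Scgn) were lower by more than 1.5-fold, as were 1.69% of all 12145 genes with at least 20 UMIs. None was higher by that fold, as were 0.782% of all genes. The median of the 10 was -0.87, and that of all genes -0.020. Pcsk2 fell from 62.2 CPM (57.4 to 67.2) to 13.2 CPM (10.7 to 16.2), a log2 ratio of -1.88, Chga from 103 CPM (96.8 to 109) to 29.6 CPM (25.7 to 34.0), -1.64, and Chgb from 1074 CPM (1054 to 1094) to 407 CPM (392 to 422), -1.39. Scg3 was at -0.99, Scgn at -0.92 and Pcsk1 at -0.83. Scg2 (-0.53), Pcsk1n (-0.53), Scg5 (-0.42) and Cpe (-0.38) lay inside the 1.5-fold line.

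The share of Chga cells differed as well, as given above. Neurog3 cells were 19.2% (16.4 to 22.2) of the control and 13.1% (10.2 to 16.6) of the knockout-labelled epithelium, with intervals that overlapped slightly. When the 3 epithelial gates were given the same share of UMIs in both libraries, 1 of the 10 genes, Pcsk2, remained lower by more than 1.5-fold (48.9 and 24.98 CPM, -0.85). Chga was then at -0.55, Chgb at -0.35 and Scg3 at -0.15, while Cpe (0.44) and Pcsk1n (0.48) turned to the other side. Lower shares of Chga and Neurog3 cells and less RNA per cell are thus separated here only as far as the gates define equal cells, and Chga sets its own gate.

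**Figure D2:**
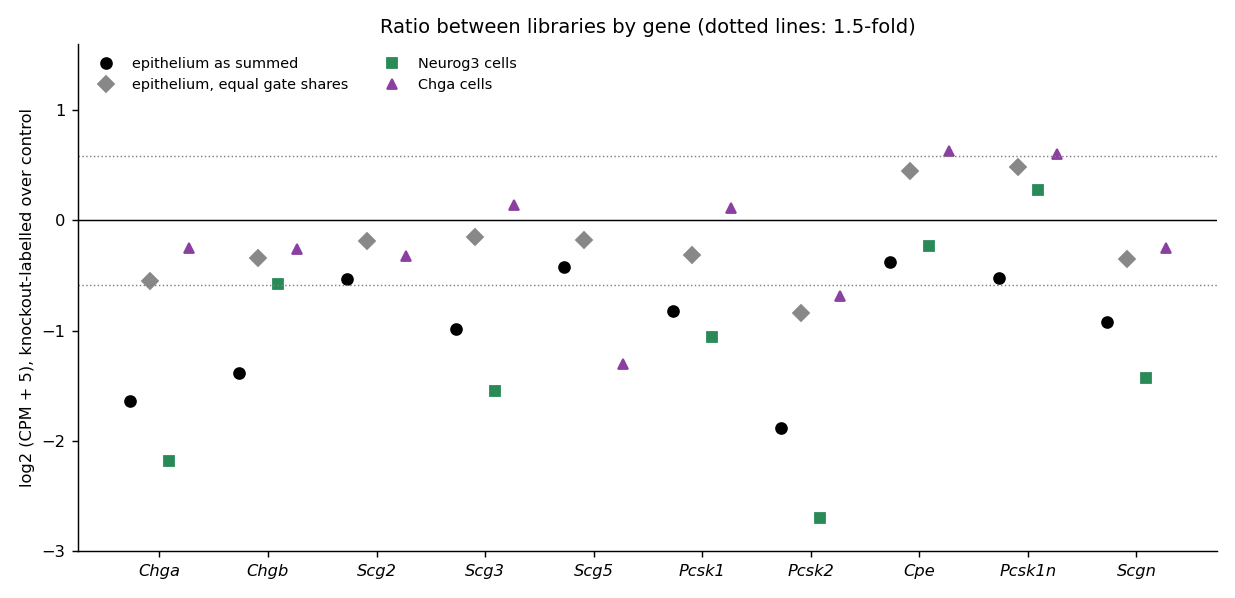
Ratio between the libraries for each gene, as log2 of (CPM + 5), knockout-labelled over control, in the epithelium as summed, in the epithelium at equal gate shares, in Neurog3 cells and in Chga cells; dotted lines mark 1.5-fold, and Scg2 and Scg5 were too low in Neurog3 cells. All 10 black points lie below 0 (Pcsk2 at -1.88), whereas at equal shares Cpe and Pcsk1n lie above 0.

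In Chga cells the 9 genes other than Chga did not move as a group. Past 1.5-fold, 2 of 9 were lower (Pcsk2 and Scg5) and 2 of 9 higher (Cpe and Pcsk1n), beside 16.1% and 10.4% of all 4639 genes, so these counts lie near the background of a gate with 18 cells in 1 library. The median of the 9 was -0.26, and that of all genes -0.059. Without the cell richest in each gene in each library, Cpe (0.53) and Pcsk1n (0.39) kept their side and lay inside 1.5-fold.

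In Neurog3 cells 5 of 8 measured genes were lower by more than 1.5-fold (Pcsk2, Chga, Scg3, Scgn and Pcsk1), beside 7.45% of all 7730 genes, and none was higher, beside 6.2% of all genes. Their median was -1.24, and that of all genes -0.0082. Endocrine markers of the same cells differed in the same direction: their summed level was 522 and 115 CPM, with 8 and 6 of 8 detected, and Isl1 was at 127 and 28.4 CPM. The part of this in the members' values was not tested. Chgb was just inside the line at -0.57, Cpe at -0.24 and Pcsk1n at 0.28, and Scg2 and Scg5 were too low to count. Compared with the other epithelium of the same library, 3 of 9 genes were at least 4-fold higher in Neurog3 cells of both libraries (Chga, Chgb and Pcsk1n), beside 1.47% of all 11935 genes. None was 4-fold below, beside 0.218%. Of the Neurog3 cells, 14 of 142 control and 3 of 61 knockout-labelled ones also had at least 3 Chga UMIs. Without them Scg3 (-1.03) and Scgn (-0.73) remained lower by more than 1.5-fold. Chga, by which the cells were removed, was at -1.01, and Pcsk2, with 12 and 0 UMIs, fell under the minimum. Pcsk1 stood at -0.16, Chgb at 0.36, Cpe at 0.41 and Pcsk1n at 0.75.

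The epithelium was next divided by Neurog3 and Chga UMIs into ranges, which are not times. Cells with no Neurog3 UMI outside the Chga gate (432 and 334 cells) had 88.7 and 70.8 CPM of the 10 genes together, and cells with 1 to 4 Neurog3 UMIs (100 and 51 cells) had 143 and 63.0 CPM. Neurog3 cells with fewer than 3 Chga UMIs (128 and 58 cells) had 541 and 640.0 CPM. Neurog3 cells with 3 or more (14 and 3 cells) had 14411 and 17167 CPM. Chga cells with 1 to 4 Neurog3 UMIs (14 and 1 cells) had 21189 and 22168 CPM, and those with no Neurog3 UMI (51 and 17 cells) had 20154 and 17479 CPM. Chga, which defines the ranges, is part of these sums, with 1428 of the 14411 CPM.

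Among the Neurog3 cells with fewer than 3 Chga UMIs, Chgb was the gene most often seen, in 30 of 128 control cells, 23.4% (16.4 to 31.7), and 13 of 58 knockout-labelled cells, 22.4% (12.5 to 35.3). Its level there was 424 and 547 CPM, but 1 knockout-labelled cell held 156 of the 352 UMIs. Cpe was seen in 18 of 128 and 12 of 58 cells and Pcsk1n in 7 and 9, so for both the knockout-labelled share was the higher, with overlapping intervals. Scg3 was seen in 13 and 3, Scgn in 14 and 3 and Pcsk1 in 12 and 5 cells. Pcsk2 was seen in 4 and 0 of these cells and Scg2 in none.

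**Figure D3:**
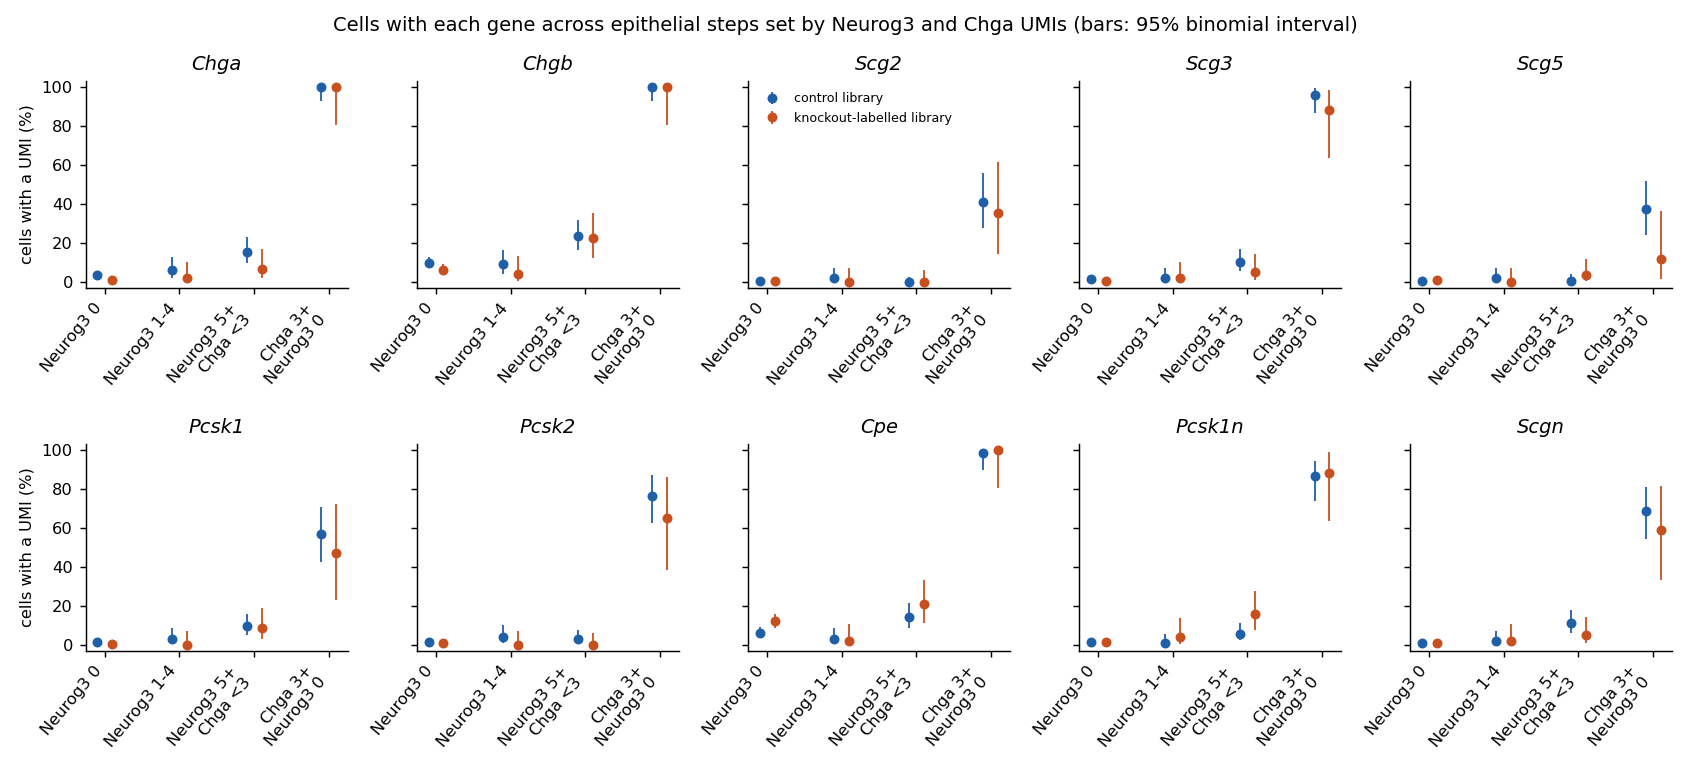
Percentage of cells with at least 1 UMI of each gene in 4 ranges of Neurog3 and Chga UMIs in the epithelium, control in blue and knockout-labelled in orange, with 95% binomial intervals. In Neurog3 cells with fewer than 3 Chga UMIs Chgb was seen in 23.4% and 22.4% of cells, and Pcsk2 in 3.12% and 0%; in Chga cells without Neurog3 it was seen in 76.5% and 64.7%.

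The 2 convertases were followed over these ranges in the control library. Pcsk1 was at 12.7 CPM in Neurog3 cells with fewer than 3 Chga UMIs, 148 CPM (91.9 to 227) in those with 3 or more, with 8 of its 21 UMIs in 1 cell, 163 CPM in Chga cells with 1 to 4 Neurog3 UMIs and 93.2 CPM (66.6 to 127) in those without. Pcsk2 was at 10.2, 354, 609 and 1099.6 CPM in the same 4 ranges. In each of the first 3 ranges much of this lay in 1 cell, with 9 of 12, 24 of 50 and 34 of 60 Pcsk2 UMIs. Pcsk2 was highest in the cells without Neurog3, whereas the Pcsk1 intervals of the last 3 ranges overlapped. The knockout-labelled library had only 3 and 1 cells in the middle ranges and is not compared there.

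Chga cells with at least 10 Gcg UMIs (16 control and 5 knockout-labelled cells) were compared with the remaining Chga cells (49 and 13 cells). Pcsk2, whose product cuts proglucagon, was higher beside Gcg in both libraries: 1597 CPM (1416 to 1794) against 709 CPM (623 to 803) in the control, and 1210.2 CPM (889 to 1609) against 398 CPM (284 to 542) in the knockout-labelled library. It was detected in 15 of 16 and 5 of 5 cells with Gcg, and in 31 of 49 and 6 of 13 cells without. Pcsk1 was lower beside Gcg, at 56.2 against 131 CPM in the control and 77.2 against 129 CPM in the other library, but its intervals overlapped in both.

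Chgb changed direction between the libraries, and Chga was lower beside Gcg in both. In the control library Chgb was lower beside Gcg, 7179.8 CPM (6791 to 7585) against 20081.5 CPM (19615 to 20557), and in the knockout-labelled library higher, 14857 CPM (13669 to 16120) against 12419 CPM (11740 to 13128). Chga was at 719.7 against 1921 CPM in the control library. In the other library it was at 1133 CPM (823 to 1521) against 1324 CPM (1108 to 1569), with overlapping intervals. The knockout-labelled values with Gcg rest on 5 cells.

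Cpe was at 652 CPM (539 to 782) in control and 1674 CPM (1292 to 2133) in knockout-labelled cells with Gcg, and at 617 and 707 CPM with overlapping intervals in those without. Pcsk1n was at 855 and 1442 CPM with Gcg and at 546 (471 to 629) and 816 CPM (649 to 1013) without. Its Poisson intervals were apart in both sets of cells, but they do not cover the gathering of UMIs in single cells. In the knockout-labelled library 1 cell held 28 of the 56 Pcsk1n UMIs with Gcg, and 1 cell held 25 of the 82 without. Scg3 was at 399 and 721 CPM with Gcg, where 1 knockout-labelled cell held 14 of the 28 UMIs, and at 346 and 279 CPM without. For Pcsk2 the intervals of the libraries, given above, were apart in the cells without Gcg and overlapped in those with it.

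**Figure D4:**
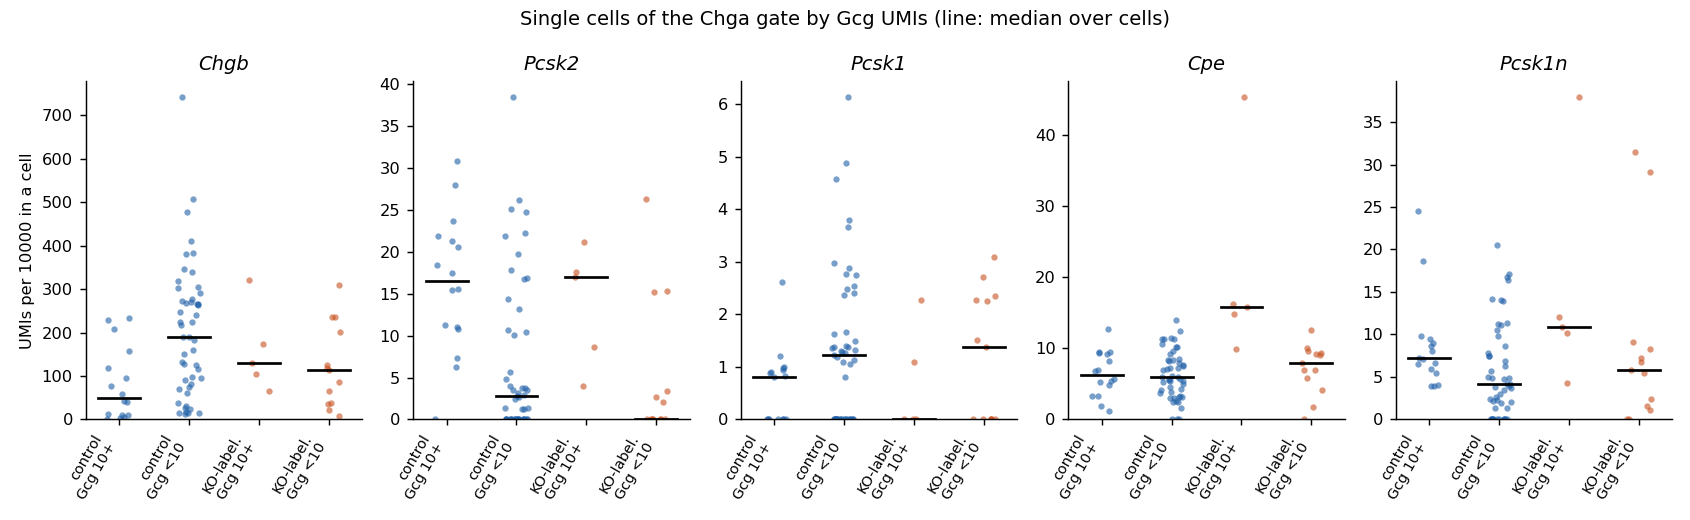
UMIs per 10000 of 5 genes in single Chga cells, split by library and by Gcg UMIs (10 or more, or fewer), each point 1 cell and each line a median over cells. The Pcsk2 medians with Gcg are 16.5 and 17.01 and without Gcg 2.78 and 0, and the Cpe medians with Gcg are 6.28 and 15.9.

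Neural cells of the fetal pancreas descend from the neural crest and form its ganglia and glia. Of these cells 19 control and 26 knockout-labelled ones had at least 2 UMIs of the neuronal genes Elavl3 and Elavl4, and 14 and 19 had fewer. The neuronal cells held a subset of the machinery. Pcsk1n was at 146 and 147 CPM, Chgb at 152 and 89.9, Scg5 at 84.9 and 53.9, Scg3 at 78.8 and 65.9, Cpe at 60.6 and 59.9, and Chga at 42.5 and 29.96 CPM. Each of the 6 was seen in between 23.1% and 50.0% of these cells. Pcsk2 had 3 UMIs in the control and 0 in the other library, Scg2 0 and 1, and Pcsk1 and Scgn none.

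In the neural cells with few Elavl UMIs, of which 13 of 14 and 13 of 19 carried Sox10 of glial precursors, Chga was at 0 and Chgb had 1 and 0 UMIs. Scg5 was still seen there in 3 of 14 and 4 of 19 cells. Against the other epithelium, 3 of 9 genes were at least 4-fold higher in neural cells of both libraries (Scg3, Scg5 and Pcsk1n), beside 2.09% of all 11848 genes, and none was 4-fold below, beside 1.8%. Between the libraries 1 of 5 measured genes, Chgb at -0.72, was lower by more than 1.5-fold in neural cells, beside 10.8% of all 4802 genes, which is near the background. None was higher, beside 10.6% of all genes.

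**Figure D5:**
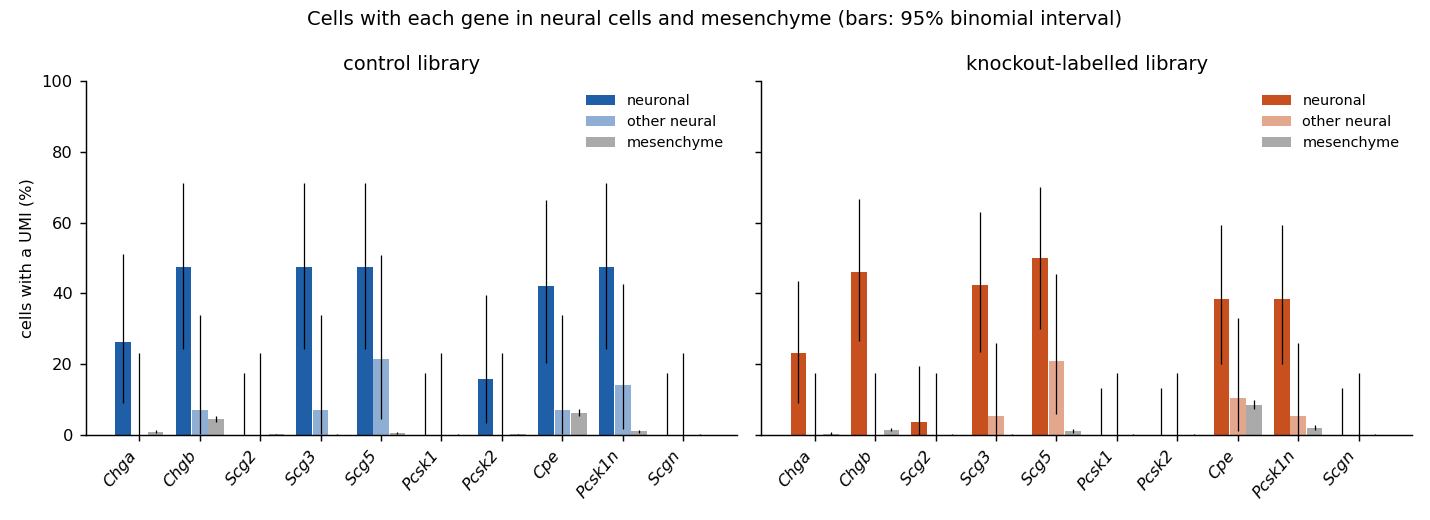
Percentage of cells with at least 1 UMI of each gene in neuronal cells (at least 2 UMIs of Elavl3 and Elavl4), other neural cells and mesenchyme, 1 panel per library, with 95% binomial intervals. Scg5 was seen in 47.4% and 50.0% of neuronal cells and Pcsk1 and Scgn in none, and in mesenchyme Cpe was highest at 6.31% and 8.63%.

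The 10 genes together were low in other epithelium (97.7 and 70.0 CPM) and mesenchyme (22.0 and 20.4 CPM). Cells of no gate had more, 661 and 147 CPM, of which Chgb supplied 80.3% and 50.1%. In the other epithelium 1 of 8 measured genes, Pcsk2, was lower by more than 1.5-fold, beside 1.22% of all 11537 genes, and none was higher, beside 0.979%. In mesenchyme 1 of 5, Chgb, was lower, beside 0.796% of all 13190 genes, and none higher, beside 0.447%. In the cells of no gate (347 and 320) 4 of 8 were lower, beside 9.66% of all 10320 genes, and none higher, beside 3.49%. Among these cells of no gate, 9 control and 2 knockout-labelled ones had at least 3 Chga UMIs but no Epcam or Cdh1 UMI. They held 647 of the 1266 control and 99 of the 174 knockout-labelled Chgb UMIs of the cells of no gate. The counts for the cells of no gate thus include them. In these 9 control cells Chgb stood at 9596 CPM, Pcsk2 at 742 CPM and Isl1 at 1023 CPM, and 3 of the 9 had at least 2 Elavl UMIs.

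Other genes of prohormone processing and regulated secretion were taken from a list of 53, of which 52 were in the files. In the whole epithelium 6 of 46 measured genes were lower by more than 1.5-fold and 0 higher, beside 1.69% and 0.782% of all genes, with a median of -0.20. The lowest were the granule exocytosis gene Syt13 (39.4 and 14.5 CPM), Tmem27 (collectrin, 40.2 and 18.7 CPM) and the granule membrane gene Ptprn (6.93 and 1.87 CPM). Rab26 (4.78 and 8.34 CPM), Pcsk5 and Cpn1 had the highest ratios and lay inside 1.5-fold. In the other epithelium 0 of 39 passed that fold in either direction.

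In Neurog3 cells 5 of 23 were lower and 0 higher, beside 7.45% and 6.2% of all genes, among the former Tmem27 (15.2 and 1.497 CPM), Pam (34.9 and 13.5 CPM) and Syt13 (185 and 89.8 CPM). In Chga cells 5 of 29 were lower and 3 higher, near the 16.1% and 10.4% of all genes, with a median of -0.049, so the genes named next are values only. Pam encodes the enzyme that amidates peptide ends after Cpe has acted, and like Cpe it was higher in knockout-labelled Chga cells, at 362 and 610.1 CPM. Cpm and Rab3b were the other 2 that were higher (30.3 and 50.2 CPM, and 26.5 and 43.1 CPM). Rab3d (112 and 43.1 CPM), Ica1 (106 and 50.2 CPM) and Ptprn (119 and 57.4 CPM) were the lowest. In neural cells 2 of 12 were lower and 1 higher, beside 10.8% and 10.6% of all genes, Resp18 (50.3 and 25.6 CPM), Snap25 (86.3 and 47.6 CPM) and Cadps (17.98 and 32.9 CPM).

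Against the other epithelium, 20 of 44 measured genes of the list were at least 4-fold higher in Chga cells of both libraries, beside 2.72% of all genes, among them Snap25, Stx1a and Vamp2 of the membrane fusion machinery, Rab3a, Rab27a, Pam, Ptprn, Ptprn2 and Resp18. In Neurog3 cells 8 of 41 were, beside 1.47% of all genes, among them Cadps, Cplx2, Ptprn2, Rab3d, Rph3al, Syt13 and Syt7. Rph3al (203 and 159 CPM in Neurog3 cells, 140 and 172 CPM in Chga cells) and Syt7 (108 and 108 CPM, 106 and 115 CPM) were about as high in Neurog3 as in Chga cells. All 10 genes of the group, Chga by the gate itself, had higher levels in Chga than in Neurog3 cells in both libraries. For Scg5 in the knockout-labelled library this rests on 3 and 5 UMIs, and the intervals overlapped (4.44 to 62.9 and 2.43 to 17.5 CPM).

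Genes of similar pattern were sought over 12 points, 6 gates in each of 2 libraries, among 6214 candidates. The points share libraries, depth and the cells that define the gates, so the values are descriptions. Scgn was most like Hepacam2 (Pearson r = 0.99) and Pax6 (0.99), and Pcsk1 most like Slc35b1 (0.99) and Hepacam2 (0.99). Chgb was most like Rogdi (0.97), Hagh (0.96) and Pax6 (0.96), Chga like Gnptg (0.97), and Pcsk2 like Ptbp3 (0.98) and Rab7 (0.97). Scg2 was most like Tmem27 (0.98), Scg3 like Dynlt1a (0.97), and Cpe like Map9 (0.98). Scg5 had the weakest nearest neighbour, Apbb1 (0.95). Among the 10 themselves the pair Pcsk1 and Scgn had r = 0.99, and Scg5 with Scgn the lowest value, 0.37.

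A table deposited by the authors lists genes for 7 clusters, without naming the clusters or saying which library they came from. In the authors' deposited table all 10 genes had a positive average natural-log fold in cluster 1. In the authors' deposited table the values there were 2.83 for Chgb, 2.25 for Pcsk2, 2.16 for Chga, 1.84 for Cpe, 1.83 for Pcsk1n, 1.55 for Scg3, 1.14 for Scgn, 0.79 for Scg2, 0.71 for Pcsk1 and 0.46 for Scg5. Chgb was present in 98.9% and Scg5 in 38.6% of the cells of cluster 1, per the authors' deposited table. Cluster 4 had positive values for 4 genes in the authors' deposited table, Chgb (1.36), Chga (0.84), Cpe (0.37) and Pcsk1n (0.29), and none was positive in another cluster.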

How the data were processed

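The authors deposited UMI counts, 1 matrix for each library. Cell Ranger and GRCm38 are named in the submitters' processing notes, as is Seurat (2 and 3, role not given). Nothing on Cell Ranger's version or the annotation is given in the sources used here. The authors' table of cluster genes holds, by its deposited columns, a log fold (read as natural log, the form of those Seurat versions), the fraction of a cluster's cells with the gene, and p-values over cells, left unused.

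Cells were kept with at least 500 genes, 1000 UMIs and at most 10% mitochondrial UMIs (29 control and 32 knockout-labelled barcodes removed). The highest 0.8% per 1000 barcodes by a score against simulated doublets were removed, 122 and 74 cells. Each cell entered the first gate it met, in the order neural, Neurog3, Chga, other epithelium, mesenchyme, rest (347 and 320 cells); groups came from the sample titles. UMIs were summed per gate and library and scaled to CPM; 3′ tags were not divided by length. Ratios needed at least 20 UMIs over both libraries. For a count of 0 the limit is 3 counts. The members, lists, gates and markers were chosen with earlier results of these data known. Besides the members, the text names the 3 highest and 3 lowest secretory genes per gate (also those 4-fold above other epithelium), the nearest genes by pattern (at least 100 UMIs in the epithelium of both libraries), and gate markers; some of these genes are not reported here. Fold intervals and calls were tested on simulated counts. These were independent Poisson draws without cells, so the gathering of UMIs in single cells was not covered. Promoter windows are from RefSeq and gene positions from GENCODE M21, both GRCm38. Tools were Python 3.11.15, numpy 2.4.6, scipy 1.17.1, pandas 2.3.3, scikit-learn 1.9.0 and, for TMM scaling as an alternative, edgeR 4.0.16.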

Additional observations from a re-analysis of the deposited data

How the results depend on the processing

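The results were recomputed under 30 other settings, 25 planned and 5 added after seeing the data (without the richest cell of each gene, with Chga cells lacking Epcam and Cdh1 in 2 forms, without shared barcodes, and Neurog3 cells without those of 3 or more Chga UMIs). Of 910 values for single genes, 857 stayed within their interval and side, 52 moved, and 1 past 1.5-fold reversed: Chgb in neural cells, -0.72, became 0.054 with the neural gate at 2 UMIs. Counting values inside 1.5-fold too, 29 changed sign, among them Cpe (0.44) and Pcsk1n (0.48) in the epithelium at equal gate shares and Chgb (0.36) and Cpe (0.41) in Neurog3 cells without those of 3 or more Chga UMIs. The count of 6 genes lower in the whole epithelium became 1 at equal gate shares and rose to 8 without the richest cell of each gene and 9 with a pseudocount of 1 or mesenchymal CPM subtracted. The count of 5 in Neurog3 cells became 3 with the Chga gate set first, 2 after thinning to 3000 UMIs, 1 with a minimum of 100 UMIs, 3 without the cells of 3 or more Chga UMIs, and 6 without the richest cell of each gene. The count of 2 in Chga cells became 1 without doublet removal, with the Chga gate first, as a mean over cells, or with a minimum of 100 UMIs, 0 after thinning, and 3 without the richest cell of each gene (Scg5 -2.30, Pcsk2 -0.86, Scg2 -0.65). The count of 1 in neural cells became 2 with the stricter filter, the gate at 5 or a minimum of 1 UMI, 3 with gates per 10000 UMIs, and 0 with the gate at 2, thinning or a minimum of 100 UMIs. The 3 genes at least 4-fold above other epithelium in Neurog3 cells became 1 with the Chga gate first, with a pseudocount of 20 or without the cells of 3 or more Chga UMIs, 5 with gates per 10000 UMIs, and 6 with a pseudocount of 1. The ratio of Chga cell shares, 0.441, ranged from 0.404 to 0.578.

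In Chga cells Cpe (0.28 to 0.78), Pcsk1n (0.23 to 0.70) and Pcsk2 (-1.25 to -0.061) kept their sign under each of 29 settings that gave a value; Pcsk1 kept it under 21 of 28. Pcsk1n in Neurog3 cells ranged from -0.38 to 0.75. With 1 embryo per group, genotype, sex, depth and any difference in dissection or stage cannot be told apart, and 18 knockout-labelled Chga cells limit what their values can show. No paired analysis was possible because each group holds 1 library.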
